A study of Mus musculus with 8 samples.

Results

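Imprinted genes are transcribed only or mainly from the maternal or the paternal copy, some of them only in certain tissues or transcripts. A list of 49 mouse imprinted genes was examined here, and 48 of them have a gene model in GENCODE vM1, among 22367 protein-coding genes and 37273 genes of any type. The exception was Kcnq1ot1, a noncoding RNA whose promoter was placed by its RefSeq sequence instead. Of the 48 genes, 43 are protein-coding and 5 are noncoding RNAs (H19, Airn, Meg3, Rian and Mirg). Peaks of H3K4me3, H3K9ac, H3K27me3 and H3K36me3 were profiled by ChIP-seq in subcutaneous isografts of Lewis lung carcinoma, a mouse lung tumor cell line, grown in young adult female C57BL/6J mice. LLC-NR isografts are sensitive to VEGF-Trap, a soluble receptor that binds VEGF. LLC-R cells were derived from LLC by repeated rounds of in vivo selection under VEGF-Trap and are resistant to it. Each line and mark has 1 library, 8 in all, and the sources used here do not state whether a library came from 1 tumor or several. There is therefore no replicate error and no test, and intervals in the text cover counting error only.

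An imprinted locus usually holds a differentially methylated region (DMR), where DNA methylation laid down in the egg or sperm stays on the copy from that parent. The methylated copy is not the silent one for every gene of a locus. Where a promoter lies in the DMR, its unmethylated copy carries the active marks H3K4me3 and H3K9ac, while the methylated copy lacks them. H3K27me3, the mark of Polycomb repression, covers silent copies in several imprinted clusters, and H3K36me3 lies over bodies of transcribed genes. An imprinted promoter can therefore hold active and repressive marks on separate copies. The files give positions only, so the parental copies could not be told apart here. Tumor tissue also contains host cells, and in bulk chromatin fewer cells with a mark and less of the mark per cell cannot be told apart.

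Promoters inside germline DMRs are compared with the other imprinted promoters below, and the 250 bases upstream of the start of 5 of them are shown. They come from RefSeq promoters (GRCm38.p6) that were matched exactly to NCBIM37 (mm9). Coordinates are of NCBIM37, each sequence is 5′ to 3′ on the strand of the gene, and capitals mark CpG, the dinucleotide that carries the methylation.
Kcnq1ot1, chr7:150482453-150482702, minus strand: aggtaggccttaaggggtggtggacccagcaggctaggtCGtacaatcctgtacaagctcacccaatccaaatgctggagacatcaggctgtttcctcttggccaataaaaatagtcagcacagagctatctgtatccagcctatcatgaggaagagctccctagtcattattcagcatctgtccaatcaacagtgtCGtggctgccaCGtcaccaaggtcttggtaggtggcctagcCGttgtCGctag
Airn, chr17:12933927-12934176, plus strand: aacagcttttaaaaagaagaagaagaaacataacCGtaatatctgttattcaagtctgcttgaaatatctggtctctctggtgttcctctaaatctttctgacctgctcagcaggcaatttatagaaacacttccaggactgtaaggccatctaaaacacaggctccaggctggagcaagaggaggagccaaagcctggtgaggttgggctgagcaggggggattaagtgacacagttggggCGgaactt
Peg3, chr7:6683131-6683380, minus strand: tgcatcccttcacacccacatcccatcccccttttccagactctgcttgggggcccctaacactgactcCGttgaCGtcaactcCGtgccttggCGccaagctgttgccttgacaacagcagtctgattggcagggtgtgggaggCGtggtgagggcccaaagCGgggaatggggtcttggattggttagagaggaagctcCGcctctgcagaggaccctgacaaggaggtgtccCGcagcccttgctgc
Mest, chr6:30687800-30688049, plus strand: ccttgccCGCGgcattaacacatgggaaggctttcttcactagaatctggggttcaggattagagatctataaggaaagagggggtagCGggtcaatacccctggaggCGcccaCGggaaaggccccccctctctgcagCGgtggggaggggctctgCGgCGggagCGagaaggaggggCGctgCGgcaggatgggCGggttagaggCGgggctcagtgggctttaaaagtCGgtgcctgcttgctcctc
Snrpn, chr7:67150086-67150335, minus strand: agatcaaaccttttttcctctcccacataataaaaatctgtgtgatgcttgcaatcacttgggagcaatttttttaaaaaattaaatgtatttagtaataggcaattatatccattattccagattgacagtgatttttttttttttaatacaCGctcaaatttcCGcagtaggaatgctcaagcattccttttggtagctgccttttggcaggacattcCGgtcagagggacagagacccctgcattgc
The Mest stretch holds 14 CpG, the Peg3 stretch 8, Kcnq1ot1 5, Snrpn 3 and Airn 2. For Mest and Snrpn these are the starts inside the DMR. The start shared by most vM1 transcripts lies 14.5 kb away in Mest and 135 kb away in Snrpn, and that of Usp29 lies 231 kb away from the start it has beside Peg3.

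Each file lists intervals of 147 bp, the length of DNA in a nucleosome. The libraries hold 5660458 to 9101721 peaks, which cover 31.3% to 50.4% of the genome, so that most regions hold some peaks of every mark. A promoter was taken to begin 1 kb before the transcription start and to end 0.5 kb after it, and it held at most 9 peaks of a mark. The LLC-R libraries had more H3K27me3 and H3K36me3 peaks than the LLC-NR libraries and fewer of H3K9ac. The mapping statistics of the paper list uniquely mapped reads in the same order, more for H3K27me3 and H3K36me3 in LLC-R and fewer for H3K9ac. Unscaled numbers of peaks thus differ between the lines together with read depth, and the part of depth was not tested. H3K4me3 peaks reached the mean of all promoters at 3 of 4 epithelial markers (Epcam, Krt8, Krt18, Cdh1) in each line, and at 2 of 3 lung markers (Sftpc, Nkx2-1, Scgb1a1). They did so at 2 of 3 leukocyte markers (Ptprc, Cd3e, Itgam) in LLC-NR, then 1 of 3 in LLC-R, at 3 of 3 endothelial markers (Pecam1, Cdh5, Kdr) and 1 of 3, and at 2 of 2 fibroblast markers (Col1a1, Pdgfra) in each. Of all promoters, 63.8% and 58.8% reached it. Of these 15 markers, 13 were bivalent in each line by the definition given next, and the part of host cells in the results was not tested.

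How often active and repressive marks share a promoter was asked first. A promoter was called active when H3K4me3 or H3K9ac reached its mean over all protein-coding promoters in that library and H3K27me3 did not, repressive when only H3K27me3 did, and bivalent when both kinds did. The mean was reached with 5 H3K4me3, 6 H3K9ac and 5 H3K27me3 peaks in LLC-NR. In LLC-R 5, 5 and 6 peaks were needed. Promoters were also divided into those of high (HCP), intermediate (ICP) and low (LCP) CpG content, and 34 of the imprinted genes had an HCP, 6 an ICP and 8 an LCP. The genes of like CpG content are the protein-coding genes weighted to these proportions.

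Active and repressive marks shared 28 of 48 imprinted promoters in LLC-NR, or 58.3% (exact 95% interval 43.2 to 72.4), against 48.4% of all promoters and 49.9% of genes of like CpG content. In LLC-R they shared 31 of 48, or 64.6% (49.5 to 77.8), against 53.1% and 53.7%. Both shares were above the background, and both intervals contained it. Promoters with an active mark alone were fewer. In LLC-NR 6 of 48, or 12.5% (4.73 to 25.2), were active, where 29.8% of all promoters and 33.7% of genes of like CpG content were. Repressive promoters numbered 11, or 22.9% (12.0 to 37.3), against 8.17% and 6.81%. Most of them lie in few places. Dlk1, Rian, Mirg, Rtl1 and Dio3 belong to the Dlk1-Dio3 cluster, and H19, Ascl2, Kcnq1 and Phlda2 are near each other on chromosome 7. The others were Slc22a2 and Nap1l5. The intervals treat promoters of a cluster as independent and may be too narrow. The LLC-R values lay closer to the background, with 12 active promoters (25%, against 28.3% and 32.1%) and 2 repressive ones (4.17%, against 5.7% and 4.76%). The remaining 3 in each line had neither, against 13.6% and 12.9% of all promoters.

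**Figure D1:**
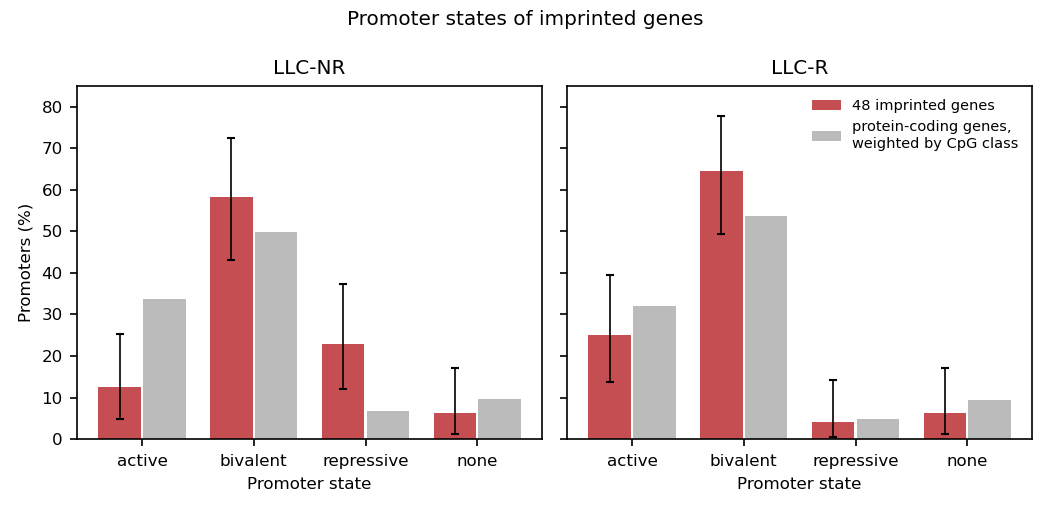
Share of promoters (%) in each state in LLC-NR (left) and LLC-R (right), for 48 imprinted genes (red) and for protein-coding genes weighted to the same CpG classes (grey). Error bars are exact 95% binomial intervals of the imprinted genes and cover counting error only; the red and grey bars differ most in the active and repressive states of LLC-NR (12.5% against 33.7%, and 22.9% against 6.81%).

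The same was seen within HCPs. In LLC-NR 4 of 34 imprinted HCPs were active, or 11.8% (3.30 to 27.5), against 40.2% of 12048 HCPs, 22 were bivalent against 52.2%, and 7 were repressive (20.6%) against 4.52%. In LLC-R 8 of 34 were active (23.5%) against 38.4%, 22 were again bivalent against 54.6%, and 1 was repressive against 3.19%. The repressive share in LLC-R depended on the promoter region: with 0.5 kb on either side of the start, 12 of 48 imprinted promoters were repressive, or 25%, against 13% of genes of like CpG content. With the LLC-NR means as thresholds in both lines, which differ by 1 peak for H3K9ac and for H3K27me3, 8 were repressive in LLC-R (16.7% against 14.5%) and 38 bivalent (79.2% against 66.1%).

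By mark, the imprinted promoters held 5.44 ± 1.22 H3K27me3 peaks in LLC-NR (SD over 48 promoters) against 4.61 in genes of like CpG content, and the counting interval of their mean was 4.80 to 6.14. In LLC-R they held 6.02 ± 1.0 against 5.51, with an interval of 5.35 to 6.76 that contains the background. These intervals treat peaks as Poisson counts. Peaks of a library do not overlap, so their numbers vary less than that, as the SDs show. The intervals of mean peak numbers are thus too wide, and one that contains the background does not show that there was no difference. H3K27me3 reached the mean at 39 of 48 in LLC-NR, or 81.3%, where 56.6% of all promoters and 56.7% of genes of like CpG content did so. In LLC-R it did at 33 of 48, or 68.8%, against 58.8% and 58.5%. Among HCPs the count in LLC-NR was 29 of 34, or 85.3%, against 56.7%, and in LLC-R 23 of 34, or 67.6%, against 57.8%.

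The active marks were at or under the background in LLC-NR. H3K4me3 stood at 4.96 ± 1.54 peaks against 5.35 and H3K9ac at 5.23 ± 1.75 against 5.64. The intervals of both means, 4.35 to 5.63 and 4.60 to 5.92, contain the background, but they too are too wide. Among the 34 HCPs the gap was wider, with 5.32 ± 1.30 H3K4me3 peaks against 6.06 ± 1.36 over all HCPs, and 4.97 ± 1.82 H3K9ac peaks against 5.86 ± 1.38. In LLC-R the imprinted HCPs held 5.50 ± 1.13 H3K4me3 peaks against 5.6, and 4.76 ± 1.63 H3K9ac peaks against 5.25. H3K36me3 at imprinted promoters was 3.60 ± 1.61 in LLC-NR against 3.13, and 5.19 ± 1.38 in LLC-R against 4.97.

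Peaks of H3K4me3 with an H3K27me3 peak close by were counted next. Of 238 H3K4me3 peaks in imprinted promoters of LLC-NR, 161 (67.6%, 61.3 to 73.5) had an H3K27me3 peak whose midpoint was within 73 bp, against 57.4% in all promoters and 57.1% in genes of like CpG content. In LLC-R 169 of 241 did (70.1%, 63.9 to 75.8), against 67.3% and 67.0%. A match is likelier where H3K27me3 peaks are denser. Against promoters of like CpG content with the same number of H3K27me3 peaks, the matched shares were 65.2% and 69.9%, which the intervals of both lines contain. Peaks of a promoter are neighbors on the same DNA, so these intervals are too narrow.

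**Figure D2:**
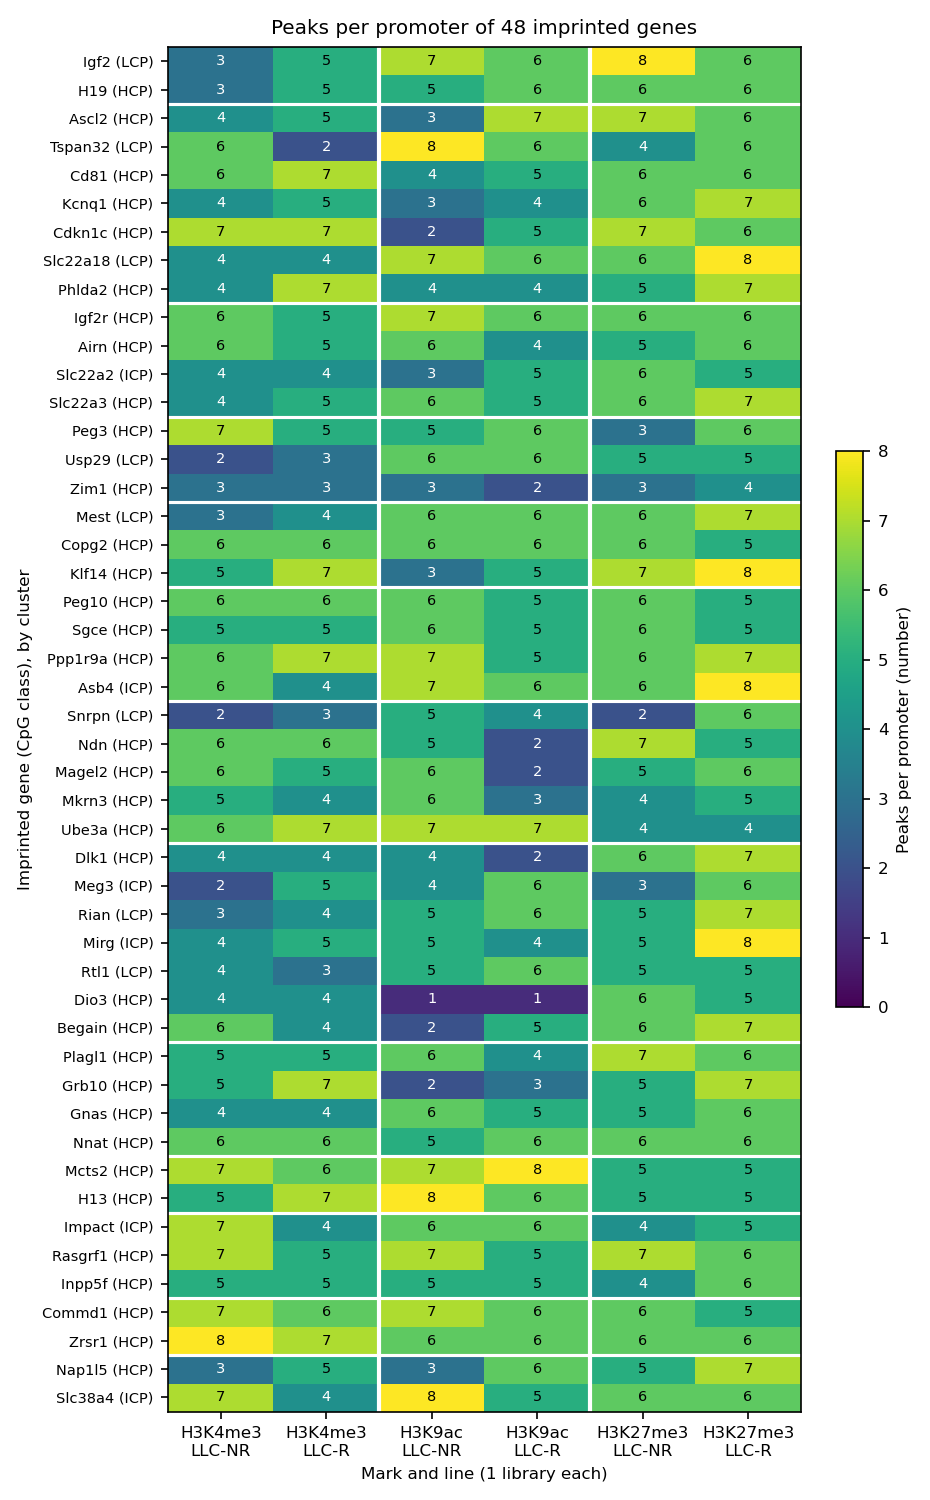
Number of peaks of H3K4me3, H3K9ac and H3K27me3 in the promoter of each of 48 imprinted genes (rows, by cluster, with the CpG class), with LLC-NR and LLC-R side by side for each mark and 1 library per column. Colors and figures both give the number of peaks; H3K27me3 runs from 2 to 8 in LLC-NR and from 4 to 8 in LLC-R, while H3K9ac falls to 1 at Dio3 in both lines.

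Of the 48 promoters, 20 were bivalent in both lines (41.7%, against 35.1% of all promoters and 35.7% of genes of like CpG content). They include the promoters of Airn, Mest, Plagl1, Nnat, Zrsr1 and Slc38a4 in the DMR list described below, and 14 others. Of those 14, Igf2 and Slc22a18 have an LCP and Asb4 an ICP, and the rest have HCPs. Igf2, the fetal growth factor that is read from the paternal copy, had 3 H3K4me3, 7 H3K9ac and 8 H3K27me3 peaks in LLC-NR, then 5, 6 and 6 in LLC-R. Slc22a18, a transporter gene of the Kcnq1 cluster, had 4, 7 and 6 in LLC-NR, then 4, 6 and 8 in LLC-R. Asb4, a gene of the Peg10 cluster, had 6, 7 and 6, and then 4, 6 and 8. At all 3 the active call in LLC-R rested on H3K9ac or, at Igf2, on both active marks.

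The same state was called in both lines at 24 of 48 promoters, or 50%, against 62.1% of all promoters and 62.4% of genes of like CpG content. The most frequent changes were from bivalent to active, at 8 promoters (16.7%, against 10.1% of all promoters), and from repressive to bivalent, at 7 (14.6%, against 4.51%). The first of these rests on the threshold: all 8 promoters (Usp29, Copg2, Peg10, Sgce, Ndn, Mcts2, H13 and Commd1) held 5 H3K27me3 peaks in LLC-R, 1 fewer than the 6 needed there, and Usp29, Mcts2 and H13 held 5 in both lines. With the LLC-NR means as thresholds in both lines, 0 promoters went from bivalent to active (2.37% of all promoters did) and 8 from repressive to bivalent (16.7%, against 3.76%). Imprinted promoters were repressive in LLC-NR more often to begin with (22.9%, against 8.17% of all promoters). Of the 11 repressive ones 7 became bivalent, against 1009 of 1828 over all promoters. With the LLC-NR means 8 of the 11 did, against 842 of 1828. The promoters that went from repressive to bivalent were those of H19, Ascl2, Kcnq1, Phlda2, Rian, Mirg and Nap1l5. H19, the maternal noncoding RNA next to Igf2, had 3 H3K4me3, 5 H3K9ac and 6 H3K27me3 peaks in LLC-NR, then 5, 6 and 6 in LLC-R. Kcnq1, a potassium channel gene, had 4, 3 and 6, and then 5, 4 and 7, so that a gain of 1 H3K4me3 peak changed its state. Dlk1, a paternally read delta-like protein that binds Notch, was the 1 promoter repressive in both lines, with 4, 4 and 6 peaks in LLC-NR, then 4, 2 and 7 in LLC-R. Ube3a, a ubiquitin ligase gene whose paternal copy is silent in neurons, was active in both, with 6 H3K4me3, 7 H3K9ac and 4 H3K27me3 peaks in LLC-NR, then 7, 7 and 4 in LLC-R.

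Changes between the lines were then counted in unscaled numbers of peaks. For H3K4me3, 19 imprinted promoters had more peaks in LLC-R, 15 fewer and 14 the same number, against 25.6% of all promoters with more and 43.5% with fewer. In genes of like CpG content, 23.8% had more and 45.3% fewer, where the imprinted genes had 39.6% and 31.2%. For H3K9ac, 16 had more and 23 fewer, against 19.2% and 50.5% of all promoters. For H3K27me3, 25 had more and 12 fewer, against 58.5% and 15%. Relative to genes of like CpG content, the summed peaks changed from LLC-NR to LLC-R by 0.12 on the log2 scale for H3K4me3 (counting interval -0.15 to 0.38), by 0.09 for H3K9ac (-0.17 to 0.35) and by -0.11 for H3K27me3 (-0.36 to 0.14). All 3 intervals contain 0, but they also treat peaks as independent counts, are likely too wide and cannot exclude a change. The direction at single promoters depended on the scaling: after division by uniquely mapped reads, H3K27me3 was lower in LLC-R at 47 of 48 imprinted promoters, as at 89.2% of all promoters, and H3K9ac was higher at 44, as at 89.6%. After division by the peaks of the library, H3K27me3 was lower at 35, as at 60.4% of all promoters, and H3K4me3 was higher at 33, as at 52.5%. These are 72.9% and 68.8% of the imprinted promoters.

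H3K4me3 differed by 3 or more peaks from the median change of all promoters at 5 imprinted promoters, or 10.4%, against 7.77% of all promoters. It was lower in LLC-R at Tspan32, a tetraspanin gene (6 peaks in LLC-NR, then 2 in LLC-R, but 5 in each at its most upstream start, 613 bases away), Impact, a translational regulator (7 and 4), and Slc38a4, an amino acid transporter (7 and 4). It was higher at Phlda2, a placental growth restrictor (4 and 7), and at Meg3, a maternal noncoding RNA (2 and 5). In the 1 Mb on either side, H3K4me3 changed by 0.04 on the log2 scale at Tspan32 and Slc38a4, 0.05 at Meg3, 0.10 at Phlda2 and 0.31 at Impact, each relative to the genome. At Impact the promoter thus had fewer peaks in LLC-R, while its surroundings had more.

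H3K27me3 was 3 or more peaks from the median change at 3 promoters, or 6.25%, against 7.56% of all promoters. It was lower in LLC-R at Igf2 (8 and 6 peaks) and at Ndn (7 and 5), a paternally read gene of the Snrpn cluster, where the median promoter gained 1. At 3 further RefSeq starts of Igf2 the numbers were 7 and 7, 7 and 7, and 4 and 6, so that the lower number was seen at 1 of its 4 starts. At the vM1 start of Snrpn, which encodes a splicing protein, it was higher (2 and 6 peaks), and in the 1 Mb around Snrpn and Ndn it was higher by 0.32 and 0.26 on the log2 scale. At the start of Snrpn inside the DMR the numbers were 2 and 4.

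For H3K9ac 8 promoters were 3 or more peaks from the median change, or 16.7%, against 6.46% of all promoters, and 7 of the 8 were higher. The median change was -1, so a gain of 2 peaks was enough, while a loss had to reach 4. Ascl2, a transcription factor of the trophoblast, had 3 peaks in LLC-NR, then 7 in LLC-R. Cdkn1c, a maternally read inhibitor of cyclin-dependent kinases, had 2 and 5, Begain 2 and 5, and Nap1l5 3 and 6. At a start of Begain 14.8 kb away the numbers were 6 and 6. Slc22a2 and Klf14 each had 3 and 5, and Meg3 had 4 and 6. Magel2, next to Ndn, was lower, with 6 and 2. The Snrpn cluster went in this mark from a mean of 5.80 ± 0.84 peaks over its 5 promoters to 3.60 ± 2.07, and the 7 promoters of the Kcnq1 cluster went from 4.43 ± 2.23 to 5.29 ± 1.11, where all promoters lost 0.54 on average. These are SDs over promoters of 1 library, not over tumors.

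Promoters inside germline DMRs were compared with the other imprinted promoters. Of the DMR list 14 genes have a vM1 model: Airn, Peg3, Usp29, Mest, Peg10, Sgce, Snrpn, Plagl1, Nnat, Mcts2, Impact, Zrsr1, Nap1l5 and Slc38a4. Peg10 and Sgce start 102 bases apart on opposite strands and share most of their peaks. With the vM1 starts, 10 of 14 (71.4%) were bivalent in LLC-NR, then 8 (57.1%) in LLC-R, against 18 (52.9%) and 23 (67.6%) of the other 34. Of all promoters, 48.4% and 53.1% were bivalent. Repressive promoters were 1 of 14 in each line, against 10 and 1 of the other 34, and 8.17% and 5.7% of all promoters. H3K9ac was 5.79 ± 1.12 peaks in LLC-NR, then 5.50 ± 1.09 in LLC-R over the 14, against 5.0 ± 1.92 and 4.79 ± 1.57 over the others. H3K36me3 was 4.57 ± 1.22 and 6.00 ± 0.88, against 3.21 ± 1.59 and 4.85 ± 1.42.

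With the starts that lie inside the DMR, and with Kcnq1ot1 added, 8 of 15 (53.3%) were bivalent, 6 active and 1 repressive in LLC-NR. In LLC-R 9 (60%) were bivalent, 5 active and 1 repressive. Most of the 15 are HCPs. Of all HCPs, 52.2% were bivalent and 40.2% active in LLC-NR, then 54.6% and 38.4% in LLC-R. The bivalent shares at these starts were thus near those of all HCPs. Peg3, a zinc finger gene read from the paternal copy, had 7 H3K4me3, 5 H3K9ac, 3 H3K27me3 and 3 H3K36me3 peaks in LLC-NR, then 5, 6, 6 and 6 in LLC-R. Usp29, which starts next to it on the other strand, had 6, 5, 2 and 3, and then 5, 6, 6 and 5. Kcnq1ot1, the paternal noncoding RNA that silences the Kcnq1 cluster in cis, had 6, 6, 4 and 3, and then 4, 3, 6 and 6. The starts of Peg3 and Usp29 are 164 bases apart, and their promoters share most of their peaks. The unscaled number of H3K27me3 peaks was lower in LLC-NR than in LLC-R at all 3, as at 58.5% of all promoters, and Kcnq1ot1 went from active to repressive. Snrpn had 5, 7, 2 and 1 peaks in LLC-NR, then 5, 4, 4 and 5 in LLC-R, and was active in both lines.

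Mest, a hydrolase gene read from the paternal copy, had 6 H3K4me3, 6 H3K9ac, 7 H3K27me3 and 6 H3K36me3 peaks in LLC-NR, then 6, 5, 6 and 6 in LLC-R at its start inside the DMR. Airn, which silences Igf2r in cis, had 6, 6, 5 and 6, and then 5, 4, 6 and 5. Nnat, which encodes a brain proteolipid, had 6, 5, 7 and 6, and then 6, 6, 6 and 7. All 3 were bivalent in both lines. Plagl1, a zinc finger growth regulator, had 5, 6, 7 and 5 in LLC-NR, then 5, 4, 6 and 5 in LLC-R. Zrsr1, a retrogene inside Commd1, had 6, 6, 4 and 4, and then 5, 5, 6 and 6. These are values of a RefSeq start 1.21 kb from its vM1 start, active in LLC-NR and bivalent in LLC-R. At the vM1 start, bivalent in both lines, Zrsr1 had 8, 6, 6 and 7, and then 7, 6, 6 and 7.

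Peg10, a gene derived from a retrotransposon, had 6 H3K4me3, 6 H3K9ac, 6 H3K27me3 and 4 H3K36me3 peaks in LLC-NR, then 6, 5, 5 and 6 in LLC-R. Sgce, its neighbor, had 5, 6, 6 and 3, and then 5, 5, 5 and 4. Mcts2, a retrogene inside H13, had 7, 7, 5 and 5, and then 6, 8, 5 and 6, with the most H3K9ac peaks of the list in LLC-R. Impact had 7, 6, 4 and 4, and then 4, 6, 5 and 6. Slc38a4 had 7, 8, 6 and 5, and then 4, 5, 6 and 7. Nap1l5, a retrogene, was the 1 repressive promoter of LLC-NR, with 3, 3, 5 and 5, and in LLC-R it had 5, 6, 7 and 7.

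**Figure D3:**
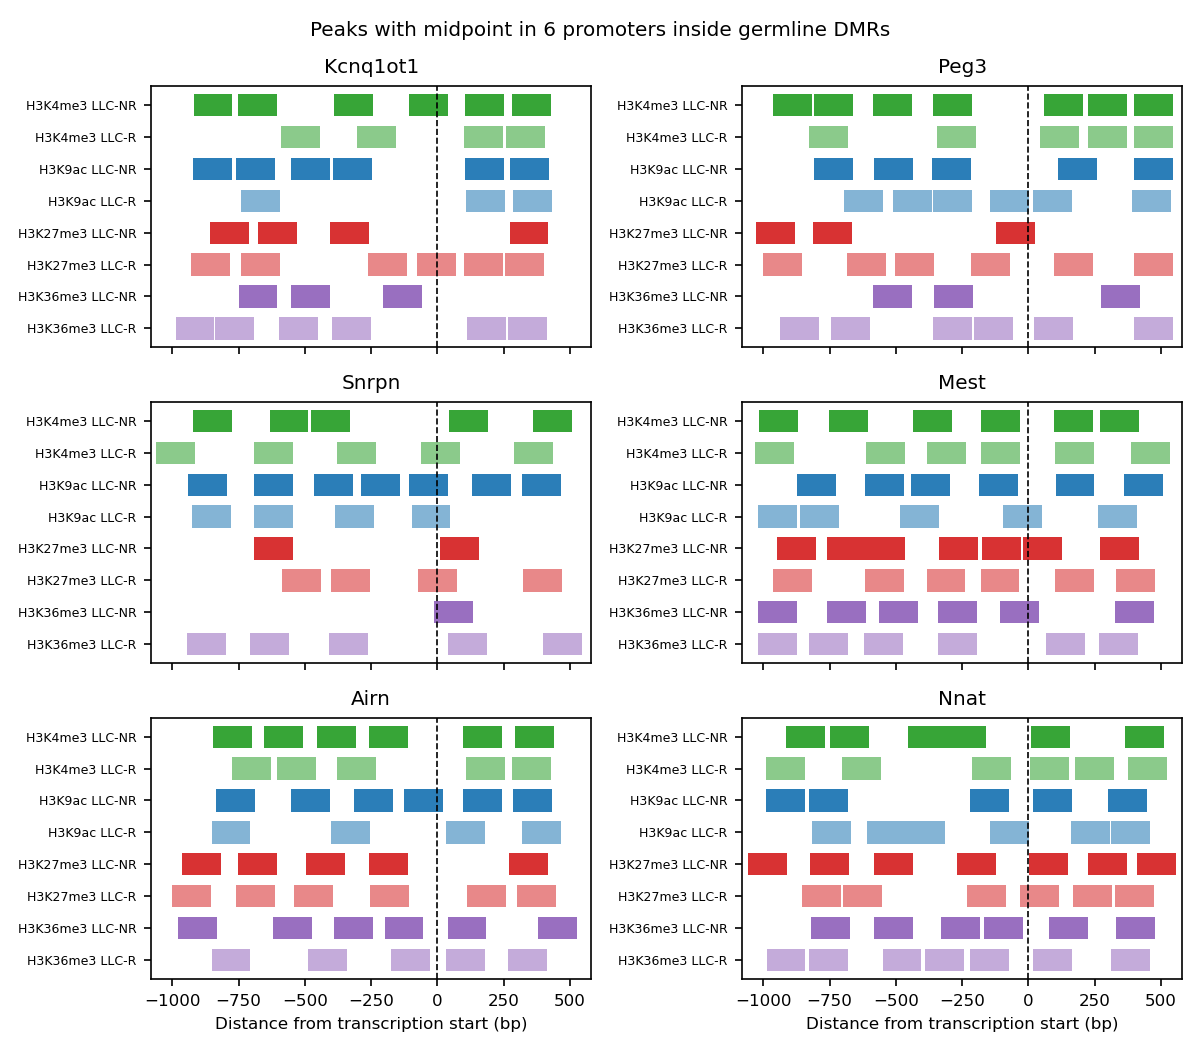
Peaks whose midpoint lies in the promoter of 6 genes, at starts inside germline DMRs, by distance from the transcription start (bp, dashed line at 0, transcription to the right). Each bar is a peak drawn at its width of 147 bp, a row is a library, and full and pale colors are LLC-NR and LLC-R; H3K27me3 peaks are few at Peg3 (3) and Snrpn (2) in LLC-NR and many at Mest and Nnat (7 each).

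At the H19 locus the germline DMR lies upstream of the promoter and is bound by the insulator protein CTCF on the maternal copy. A core of the CTCF motif, 14 letters long with free positions 5, 6 and 9 from its 5′ end and otherwise the letters that the sites below share, was searched on both strands. It occurred 4 times in the 5 kb upstream of H19, between 2166 and 3904 bases from its start. The core has the letters of these sites, so their number cannot show an enrichment over other promoters. The 4 sites are shown to mark the stretch counted below, with CpG in capitals.
H19 upstream site, chr7:149766214-149766227, minus strand: cCGCGtggtggcag
H19 upstream site, chr7:149766669-149766682, minus strand: cCGCGCGgtggcag
H19 upstream site, chr7:149767695-149767708, minus strand: cCGcaCGgCGgcag
H19 upstream site, chr7:149767939-149767952, minus strand: cCGCGtggtggcag
The stretch from 2001 to 4000 bases upstream, which holds the 4 sites, contained 5 H3K4me3 peaks in each line, 9 H3K9ac peaks in LLC-NR, then 5 in LLC-R, 8 H3K27me3 peaks in each, and 2 and 5 H3K36me3 peaks. In the 2000 bases next to the start there were 3 and 7 H3K4me3 peaks and again 8 H3K27me3 peaks in each line. The numbers of single stretches are small, and differences of a few peaks were not tested.

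Along gene bodies, counted from 0.5 kb downstream of the start to the end, 46 imprinted genes were long enough. Phlda2 and Mcts2 were not. H3K27me3 was high over these bodies, with a median of 3.47 peaks per kb in LLC-NR against 2.72 over 20470 protein-coding genes, and 4.14 in LLC-R against 3.79. It was above the 75th percentile at 20 of 46 imprinted genes in LLC-NR, or 43.5%, against 25% of all genes and 23.1% of genes of like CpG content, and at 23 of 46, or 50%, in LLC-R, against 25% and 23.5%. The level was highest in Cdkn1c, at 5.0 peaks per kb in both lines, and lowest in Ube3a in LLC-NR (1.56) and in Copg2 in LLC-R (2.52). Dio3, which encodes an enzyme that inactivates thyroid hormone, stood at 4.58 in each line, and Slc22a3, a transporter gene of the Igf2r cluster, at 4.15 and 4.49.

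H3K36me3 had lower medians over these bodies than over all genes, of 2.91 peaks per kb in LLC-NR against 3.10, and 3.83 in LLC-R against 3.97. It was above the median of all genes at 19 of 46 in LLC-NR (41.3%) and at 13 in LLC-R (28.3%). It was above the 75th percentile at 5 of 46 in LLC-NR (10.9%) and 7 in LLC-R (15.2%), against 25% of all genes and 28.4% and 27.4% of genes of like CpG content. The 5 highest bodies by the mean of the lines were Impact (3.91 peaks per kb in LLC-NR and 4.41 in LLC-R), H13, a signal peptide peptidase (4.03 and 4.27), Igf2r, the receptor that clears Igf2 (3.87 and 4.26), Commd1 (3.66 and 4.25) and Zrsr1 (3.95 and 3.95). The 5 lowest were Igf2 (1.67 and 3.28), Rtl1 (1.5 and 3.38), Ascl2 (2.06 and 2.57), Cdkn1c (1.36 and 2.73) and Magel2 (1.20 and 2.64). Zrsr1 lies inside Commd1, and the bodies of both thus share peaks. Strand is not in the files.

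**Figure D4:**
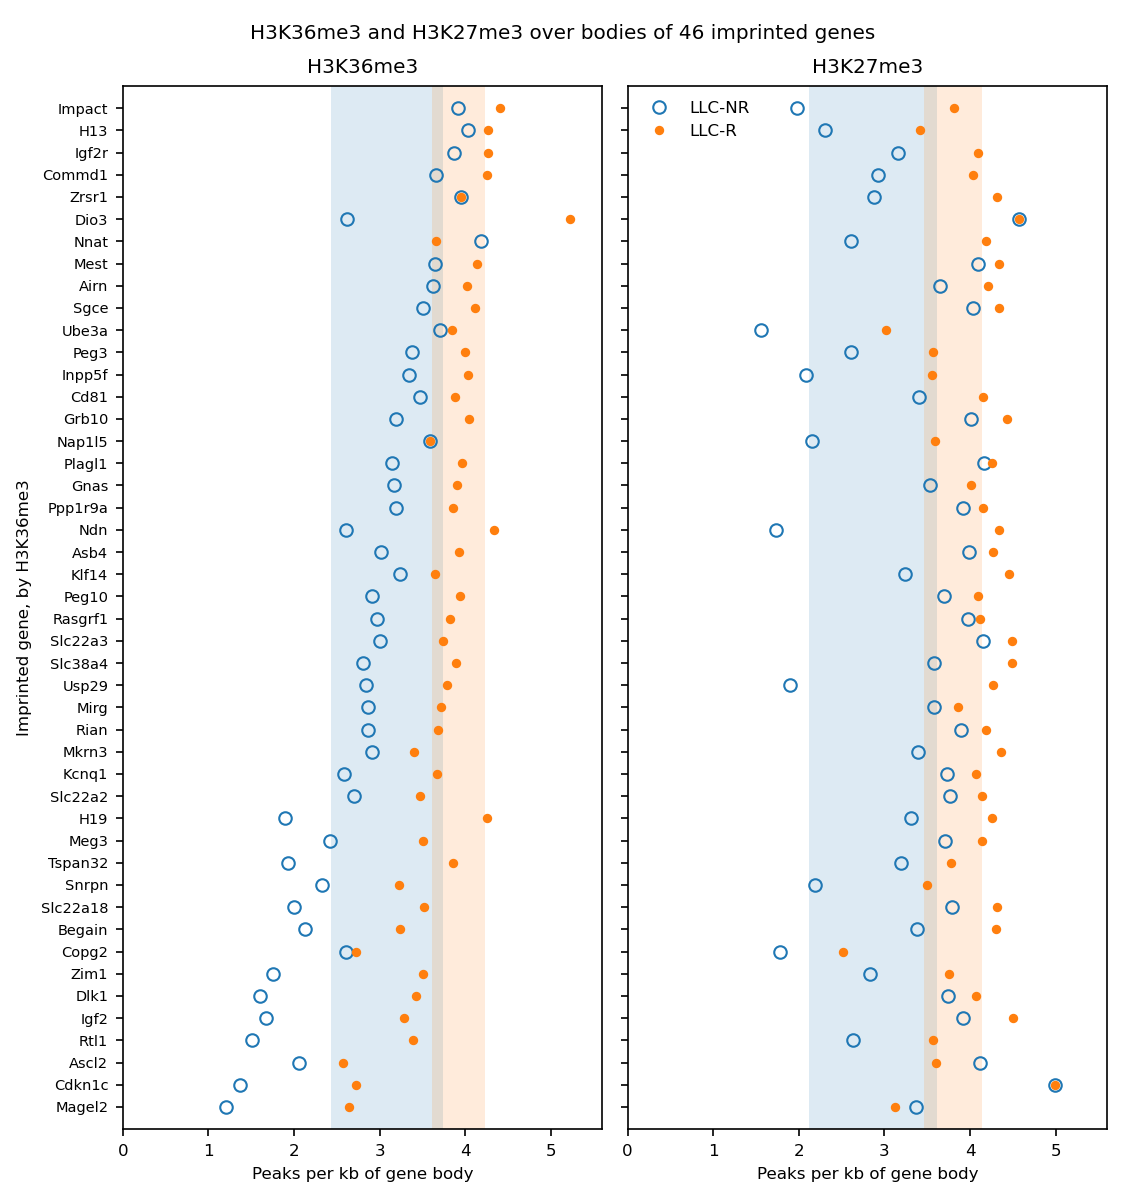
H3K36me3 (left) and H3K27me3 (right) peaks per kb over the bodies of 46 imprinted genes, ordered by the mean H3K36me3 of both lines, with open blue circles for LLC-NR and filled orange circles for LLC-R (1 library each). Shaded bands run from the 25th to the 75th percentile of 20470 protein-coding genes in the same color; 20 genes lie above the H3K27me3 band in LLC-NR, then 23 in LLC-R.

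Igf2r and Airn overlap on opposite strands, and Airn continues beyond the start of Igf2r. In the stretch of Igf2r alone H3K36me3 was 3.99 peaks per kb in LLC-NR (exact Poisson interval 3.5 to 4.53) and 4.35 in LLC-R (3.83 to 4.91). In the stretch that both genes share it was 3.60 (2.93 to 4.37) and 4.02 (3.32 to 4.83), and in the stretch of Airn alone 3.63 (3.24 to 4.04) and 4.02 (3.62 to 4.46). H3K27me3 in LLC-NR was 3.09 (2.66 to 3.57), 3.32 (2.68 to 4.06) and 3.75 (3.36 to 4.17) in the same order. The intervals of the 3 stretches overlap for both marks in each line. They treat peaks as Poisson counts, so the overlap does not show equal levels.

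Whole clusters, from 39.21 kb (H13 and Mcts2) to 3080.92 kb (Snrpn) long, were set beside 100-kb windows of the genome. H3K27me3 over the Igf2-H19 cluster was 3.92 peaks per kb in LLC-NR and 4.24 in LLC-R, higher than 93.8% and 93.3% of windows. The Kcnq1 cluster was higher than 86.5% and 84.8% of windows, the Igf2r cluster than 86.1% and 90.4%, and the Peg10 cluster than 83.9% and 76.5%. The Mest cluster was low, above 31.6% and 11.2% of windows, and so was the pair of H13 and Mcts2, above 20.6% and 24.4%. That pair was high in H3K36me3 (4.0 and 4.26 peaks per kb, above 99.4% and 98.6% of windows) and in H3K4me3 (98.5% and 99.2%). The Snrpn cluster was low in all 4 marks, above 3.74% to 4.95% of windows, and the mappability of that region was not tested.

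Of 15 genes that set or keep imprints (Zfp57, Trim28, Dnmt1, Dnmt3a, Dnmt3b, Dnmt3l, Uhrf1, Ctcf, Ctcfl, Dppa3, Ehmt2, Setdb1, Smchd1, Eed and Ezh2), 6 had an active promoter, 8 a bivalent and 1 a repressive one in LLC-NR, then 8, 6 and 1 in LLC-R. Of all promoters, 29.8% were active, 48.4% bivalent and 8.17% repressive in LLC-NR, then 28.3%, 53.1% and 5.7% in LLC-R. H3K36me3 of these 15 genes was above the median of all bodies at 12 of 15 in LLC-NR, then 11 in LLC-R. By definition the median splits all bodies evenly. Uhrf1, which guides maintenance methylation, was active in both lines, with 7 H3K4me3 and 3 H3K27me3 peaks in LLC-NR, then 6 and 5 in LLC-R. Dnmt1, the maintenance methyltransferase, was bivalent in both, with 7 H3K4me3 and 5 H3K27me3 peaks and then 6 and 7. Ctcfl, the germ cell relative of Ctcf, was the repressive promoter of LLC-NR, with 3 H3K4me3 and 6 H3K27me3 peaks, and had 5 and 6 in LLC-R.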

How the data were processed

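The authors mapped reads of 8 ChIP-seq libraries to mm9 with Bowtie 0.12.7 and used GeneTrack on the uniquely mapped reads to call peaks, library by library. Its settings are not given in the sources used here. The deposited files list start and end of each peak, with no height, count or strand, and no input library was used here. Peaks were counted by midpoint with Python 3.11.15, NumPy 2.4.6, pandas 2.3.3 and SciPy 1.17.1, in GENCODE vM1 promoters at the start shared by most transcripts, and in bodies over 1 kb long. HCPs hold a 500-bp interval with a G/C content of 55% and a CpG O/E ratio of 0.6, and LCPs none with a ratio of 0.4. The mean served as threshold for active marks in place of a multiple of it, since promoters hold at most 9 peaks. Intervals are exact at 95%. Genes are named by DMR list, state, change of 3 or more peaks and H3K36me3 rank, with Dlk1, H19, Kcnq1, Ube3a and others as examples chosen after their values were seen. The genes and lists were chosen with earlier results of these data known. Cluster, expressed copy and DMR list were assigned by hand from textbook knowledge, and the copy read in these tumors was not measured. A further leukocyte marker is not reported here. Counting was tested on simulated data. Alternatives changed the promoter, start, CpG class, background, members, threshold, distance, body and scaling.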

Additional observations from a re-analysis of the deposited data

How the results depend on the processing

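Of 209 values recomputed for 31 results, 195 stayed within the interval of the reported value or within 1.5 times the reported count, and 14 moved. The intervals of peak numbers are too wide, as given above, so that staying within them is a weak criterion. No value whose interval excluded 0 turned direction, while the differences near 0 of H3K4me3 and H3K9ac in LLC-R from genes of like CpG content ranged from -0.04 to 0.15 and from -0.17 to 0.02 peaks. After division by the peaks of the library, H3K4me3 was higher in LLC-R at 33 imprinted promoters (19 unscaled), H3K9ac at 25 (16) and H3K27me3 at 13 (25), with H3K27me3 lower at 35 (12). After division by uniquely mapped reads, H3K4me3 was higher at 39 and lower at 9 (15), H3K9ac higher at 44 and lower at 4 (23), and H3K27me3 higher at 1 and lower at 47. Over all promoters the same scalings gave H3K4me3 higher at 52.5% and 68.0%, H3K9ac at 45.9% and 89.6%, and H3K27me3 lower at 60.4% and 89.2%. The excess of H3K4me3 peaks matched by H3K27me3 in LLC-NR was 2.46 percentage points against promoters with the same number of H3K27me3 peaks, and 10.5 as reported against genes of like CpG content. The difference of median H3K36me3 from all genes in LLC-R was 0 peaks per kb when only the first 3 kb after the start were counted, without the 0.5 kb next to it, against -0.14 over the body. The excess of repressive promoters in LLC-R was 12.0 percentage points with a promoter of 0.5 kb on either side and 9.64 with both active marks required, against -0.59 as reported; the cause was not tested.

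The excess of bivalent promoters ranged from 0.57 to 12.7 percentage points in LLC-NR and from 0.51 to 13.1 in LLC-R, and was smallest when both active marks were required in LLC-NR and when 1 peak more than the mean was required in LLC-R. RefSeq promoters, a background of the 21738 promoters with a peak in any library, the LLC-NR thresholds, the background with the same number of H3K27me3 peaks and every alternative for the repressive share were chosen after seeing the data. No paired analysis was possible because each line and mark has 1 library. Numbers of peaks saturate at 9 per promoter, so they respond little where a mark is dense, and variation between tumors was not measured.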

Other observations

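The hexamer TGCCGC, the core of the motif of ZFP57, which protects imprints after fertilization, was searched on both strands of the 1.5-kb promoters. It occurred in 24 of 48 imprinted promoters, or 50%, against 38% of all promoters and 45.4% of genes of like CpG content, and there were 1.06 sites per imprinted promoter against 0.59 over all promoters and 0.73 in genes of like CpG content. GCCATNTT, a core of the YY1 motif, occurred in 9 of 48, or 18.8%, against 24.1%. A match is letters only and says nothing of binding in these tumors.

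Genes were also grouped by the copy that is read according to textbook knowledge, which was not measured in these tumors. Of 22 maternally expressed genes 11 had a bivalent promoter in LLC-NR (50%), with 16 in LLC-R (72.7%). Of 22 paternally expressed genes 14 (63.6%) and 11 (50%) did, against 48.4% and 53.1% of all promoters. The changes from bivalent to active rest on the threshold, as given above. They fell on Usp29, Peg10, Sgce, Ndn and Mcts2, read from the paternal copy, and Copg2, H13 and Commd1, read from the maternal one. At its start beside Peg3, Usp29 went instead from active to bivalent, and Commd1 was bivalent in both lines at its RefSeq starts. The vM1 starts of Mest and Snrpn, used here, also lie away from the DMR. Mean H3K4me3 was 4.77 ± 1.41 and 5.32 ± 1.46 peaks over the maternally expressed genes and 5.14 ± 1.78 and 4.73 ± 1.08 over the paternally expressed ones (SD over 22 promoters).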
